A study of Bos taurus with 6 samples.

Results

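Smooth muscle and myofibroblast contractile genes encode the actin, myosin and actin-binding proteins with which cells of vessel and gut walls, and fibroblasts of healing wounds, pull on their surroundings. The genes described were ACTA2, ACTG2, MYL9, MYH11, TPM1, TPM2, LMOD1, TAGLN, CNN1 and DES, 10 of the 17663 genes in the expression table, found by their gene names. They were chosen by their FPKM values and counts in FT and WT cells, the same values that are compared here, so these are given as a description, with no p, and nothing is read from how many of them were called.

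RNA was sequenced from bovine fetal fibroblasts (bEFs) of 3 fat-1 transgenic fetuses (FT_1, FT_2 and FT_3) and 3 wild-type Luxi fetuses (WT_1, WT_2 and WT_3). The exogenous fat-1 gene comes from Caenorhabditis elegans and encodes a desaturase that turns n-6 PUFA into n-3 PUFA. The fetuses were 50 to 60 days old, and the cells were primary cultures from what was left of the body after removal of the head, the limbs, the bones and all internal organs, digested with collagenase and grown in DMEM F12 with FBS. By the names that fetuses and libraries share, each fetus gave 1 poly(A) library, so n = 3 per group. The breed of the FT fetuses and the promoter of the transgene were not given in the sources used here, and breed and genotype cannot be told apart. The total count was 63366834, 48167642 and 54204446 in FT_1, FT_2 and FT_3, and 69777641, 51310741 and 54271927 in WT_1, WT_2 and WT_3. Levels are given in FPKM, the fragment count of a gene divided by its length and by the size of the library. Fold changes are log2 values of FT against WT cells, fitted to the counts. Their standard error was derived from the test, as the size of the log2 fold change divided by the square root of the F statistic. A gene is said to have risen or fallen where its p, adjusted over all genes, was under 0.05.

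FT_1 stood apart from all other libraries. The root mean square log2 difference over 13482 genes was 1.4 between FT_1 and FT_2 and 1.41 between FT_1 and FT_3, but 0.51 between FT_2 and FT_3 and 0.45 to 0.53 between WT libraries. FT_1 held keratin RNA that the other cultures had little of, with an FPKM of 171.54 for KRT5 and 128.14 for KRT14, against at most 2.57 for either gene in FT_2 and FT_3 and 0 in WT cells. Its summed FPKM of 17 fibroblast markers was 9779, against 24631.8 and 24019.7 in FT_2 and FT_3 and 23296.6 to 23951.4 in WT cells. Values without FT_1 are given beside some of the results it touches. Fibroblast transcripts such as VIM, COL1A1 and S100A4 were abundant in all 6 cultures, as their label has it, with the lowest level of each in FT_1. Some other fibroblast markers differed from these. PDGFRA and THY1 were highest in FT_1, at 217.73 and 413.27 FPKM. CD34 was at most at 0.7 FPKM in FT cells, against 15.99 to 18.75 in WT cells, and PI16 was at most at 0.59 in any library.

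Contraction of smooth muscle begins when calcium and calmodulin activate myosin light chain kinase, which phosphorylates the regulatory light chain so that myosin pulls on actin filaments. Tropomyosins, calponin and caldesmon lie along those filaments and set how readily myosin binds, while leiomodin starts new filaments. Most of these genes share CArG boxes, the DNA element bound by serum response factor with its cofactors myocardin and the MRTF proteins, and fibroblasts that turn into myofibroblasts switch on a part of the same set, with ACTA2 as the usual marker.

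All 10 genes had a higher fitted level in FT cells than in WT cells. ACTG2, CNN1 and DES differed most among the genes with no overlap between groups, and TPM1, TPM2 and TAGLN, which WT cells already expressed strongly, differed least. MYH11, the heavy chain of smooth muscle myosin, was near 0 in FT_1 and in all WT cells and stayed low in FT_2 and FT_3. In bulk RNA, a larger share of contractile cells and more RNA per cell cannot be told apart.

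The actins form the filaments themselves. ACTA2 (ENSBTAG00000014614, chromosome 26, 10626803 to 10679430, minus strand) encodes alpha smooth muscle actin. Its FPKM in FT_1, FT_2 and FT_3 was 1372.02, 2420.57 and 2378.19, and in WT_1, WT_2 and WT_3 it was 549.82, 502.68 and 627.17. Every FT library lay above every WT library, but FT_1 lay well below the other FT libraries, at 0.572 of their mean. FT cells averaged 2056.9 ± 594.0 and WT cells 560.0 ± 62.9 (SD, n = 3 each), and ACTA2 stood at rank 13 of all genes by mean FPKM in FT cells against rank 127 in WT cells. The log2 fold change fitted to the counts was 2.04 (standard error 0.27), and 2.27 (standard error 0.09) without FT_1.

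ACTG2 (ENSBTAG00000015441, chromosome 11, 10736902 to 10761462, minus strand) encodes gamma smooth muscle actin, the isoform typical of gut, bladder and uterine muscle. Its FPKM was 210.32, 271.79 and 263.32 in FT_1, FT_2 and FT_3, and 11.73, 9.83 and 10.81 in WT_1, WT_2 and WT_3. The groups were far apart, with each FT library above all WT libraries by more than 10-fold, and the 3 WT libraries were close to each other. FT cells had a mean of 248.0 ± 33.3 (SD, n = 3) and WT cells of 10.8 ± 0.95, and the log2 fold change came to 4.69 (standard error 0.16). By mean FPKM the gene moved from rank 5544 in WT cells to rank 232 in FT cells.

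Myosin supplies the motor. MYL9 (ENSBTAG00000011473, chromosome 13, 65646954 to 65655870, plus strand) encodes the regulatory light chain that is phosphorylated when smooth muscle and nonmuscle myosin are switched on. Its FPKM was 504.4, 465.96 and 460.57 in the FT libraries, in order of their numbers, and 143.86, 144.17 and 155.28 in the WT libraries. The groups did not overlap, and here FT_1 was the highest FT library. The fitted log2 fold change of 1.85 (standard error 0.09) was 1.82 without FT_1. Its spread was small, with an SD of 5.01% of the mean in FT cells and 4.4% in WT cells.

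MYH11 (ENSBTAG00000015988, chromosome 25, 14124964 to 14252413, minus strand) encodes the myosin heavy chain that marks differentiated smooth muscle cells. Its FPKM was 0.07 in FT_1, against 1.58 and 1.46 in FT_2 and FT_3, and 0.15, 0.12 and 0.18 in WT_1, WT_2 and WT_3. FT_1 lay below every WT library, so the groups overlapped, while FT_2 and FT_3 lay above all of them. The counts behind these values were 32, 522 and 543 in FT cells and 73, 44 and 66 in WT cells. The fitted log2 fold change was 2.93 with a standard error of 1.03, and 3.48 with a standard error of 0.19 without FT_1. At so low a level MYH11 depends on what is added to each value, and in limma it was 0.72 on log2(FPKM + 1) and 1.62 with 0.1 added. Even in FT_2 the level was a small fraction of that of the nonmuscle heavy chain genes MYH9 and MYH10, which had an FPKM of 317.46 and 289.59 in that library.

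Tropomyosins are the coiled coils that wind around actin filaments. TPM1 (ENSBTAG00000005373, chromosome 10, 46993261 to 47022757, minus strand) had an FPKM of 583.66, 674.23 and 636.56 in FT_1, FT_2 and FT_3 and of 392, 413.79 and 430.76 in WT_1, WT_2 and WT_3. TPM2 (ENSBTAG00000011424, chromosome 8, 59856503 to 59864645, minus strand) had 399.81, 381.28 and 370.0 in FT cells and 257.39, 281.43 and 291.61 in WT cells. Neither gene overlapped between the groups, and both were abundant in every library. The fitted log2 fold changes were 0.78 (standard error 0.12) for TPM1 and 0.63 (standard error 0.09) for TPM2, so the gap was far narrower than for the smooth muscle actins.

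LMOD1 (ENSBTAG00000021576, chromosome 16, 80548214 to 80576112, plus strand) encodes leiomodin 1, which nucleates actin filaments in smooth muscle. The 3 FT libraries, in order of their numbers, held 32.84, 61.1 and 53.84 FPKM, and the 3 WT libraries 12.65, 12.44 and 15.46. Like ACTA2, it was higher in every FT library, with FT_1 between the WT libraries and the other FT libraries. FT_1 had 0.571 of the mean of FT_2 and FT_3, nearly the same ratio as for ACTA2. The fitted log2 fold change was 2.03 (standard error 0.26), and 2.26 (standard error 0.1) without FT_1.

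CNN1 and TAGLN encode calponin 1 and transgelin, related proteins that bind along actin filaments, and calponin 1 slows the myosin motor. CNN1 (ENSBTAG00000011207, chromosome 7, 15883405 to 15891295, plus strand) had an FPKM of 205.04, 261.2 and 258.12 in the FT libraries and 29.27, 38.74 and 29.73 in the WT libraries. The lowest FT library had more than 5 times the FPKM of the highest WT library. Mean levels were 241.0 ± 31.6 and 32.6 ± 5.34 (SD, n = 3 each), and the log2 fold change was 3.05 (standard error 0.18).

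TAGLN (ENSBTAG00000007196, chromosome 15, 27888817 to 27894507, plus strand) had an FPKM of 695.31, 799.21 and 715.37 in FT_1, FT_2 and FT_3, and of 504.19, 524.29 and 532.96 in WT_1, WT_2 and WT_3. It was high in all 6 cultures, and the groups were separate but close. The means of 737.0 ± 55.1 and 520.0 ± 14.8 (SD, n = 3 each) gave a ratio of 1.42 in FPKM, and the fitted log2 fold change was 0.66 (standard error 0.1). CNN1 and TAGLN, usually listed side by side as smooth muscle markers, thus differed widely in how far FT and WT cells were apart.

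DES (ENSBTAG00000005353, chromosome 2, 107351796 to 107358964, plus strand) encodes desmin, the intermediate filament protein of muscle cells. Its FPKM was 5.74, 4.01 and 3.17 in the FT libraries, in order of their numbers, 0.07 in WT_1, and 0 in WT_2 and WT_3. It was low in FT cells and all but undetected in WT cells, so the gene passed the filter on low counts through the FT libraries. The counts were 873, 463 and 413 in FT cells and 12, 0 and 0 in WT cells. A count of 0 allows up to 3 reads, which scaled to library size (CPM) is 0.0585 in WT_2 and 0.0553 in WT_3, against 7.62 to 13.8 in FT cells, and these limits cover counting error only. The fitted log2 fold change of 7.44 (standard error 1.17) rests on the 12 reads of WT_1 and on the small count the fit adds to zeros. Its standard error, derived from that value, rests on them too and is no reliable measure of spread. In limma on FPKM the log2 fold change was 2.35 with 1 added to each value and 5.16 with 0.1 added.

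**Figure D1:**
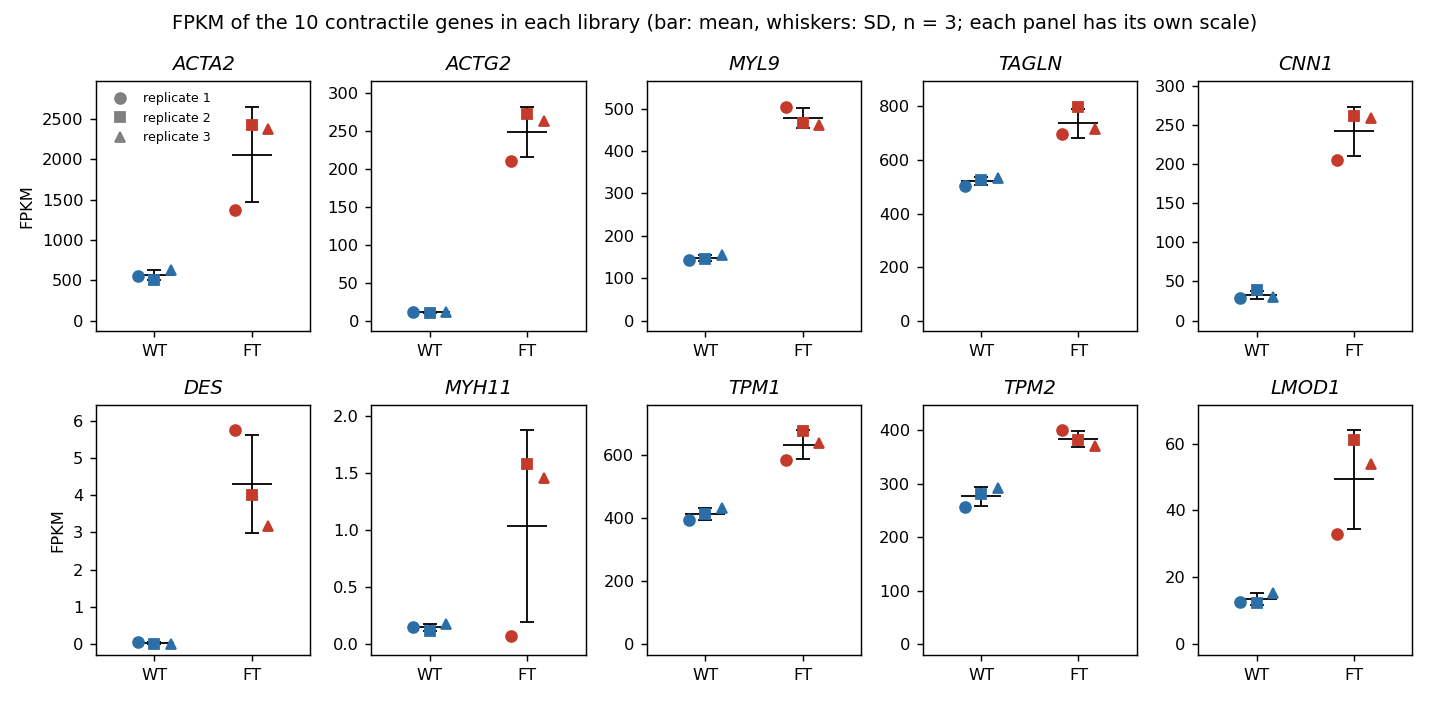
FPKM of the 10 contractile genes in each library (red, FT cells; blue, WT cells; circle, square and triangle, replicates 1, 2 and 3), with the mean (bar) and SD (whiskers, n = 3), each panel on its own scale. In 9 panels all FT points lie above all WT points, and in the MYH11 panel FT_1 lies at 0.07, below the WT points.

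Of the 10 genes, 9 had every FT library above every WT library in FPKM, where 21.8% of the 13482 genes that passed the filter did. MYH11 was the exception, and none had every FT library below every WT library, where 36.9% of all genes did. All 10 passed the filter on low counts. The fit over all genes called 9 of them up and none down, beside 20.1% of all genes called up, 18.9% called down and 39.0% called either way. At the threshold named in the methods of the study, a log2 fold change over 1 in size with an unadjusted p under 0.05, the shares of all genes were 10.2% up and 8.96% down. Without FT_1 all 10 were called up, beside 30.6% of all genes called up and 31.5% called down. Since the genes were chosen for this difference, nothing is read from these counts. The 10 genes had a median of 2.03, all genes tested 0.03, and 7 of the 10 were over 1 and 3 between 0 and 1.

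FT_1 did not shift these genes in a single direction. It was the lowest FT library in 7 of them and the highest in 3, namely MYL9, DES and TPM2. It was below the mean of FT_2 and FT_3 by more than 1.5-fold in ACTA2, LMOD1 and MYH11, exceeded it by as much in DES, and was within 1.5-fold in the other 6. FT_2 and FT_3 were nearly alike, with a root mean square log2 difference of 0.13 over the 10 genes, against 1.46 and 1.43 between FT_1 and either of them. Most of that distance came from MYH11, whose level in FT_1 was 0.0461 of the mean of FT_2 and FT_3.

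**Figure D2:**
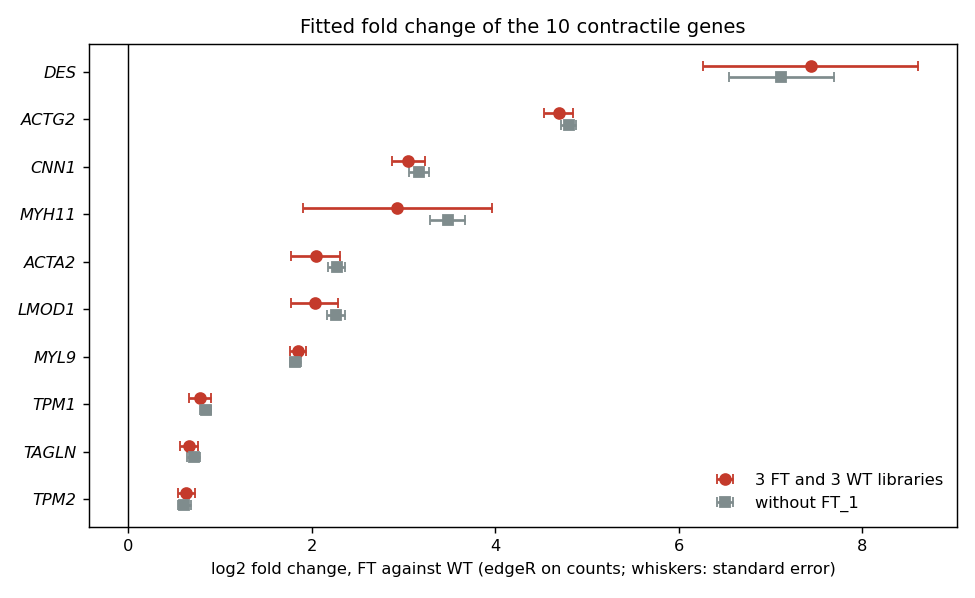
Fitted log2 fold change of the 10 contractile genes in FT cells against WT cells (points; whiskers, standard error), from all 6 libraries (red circles) and without FT_1 (grey squares). All points lie above 0, from 0.63 for TPM2 to 7.44 for DES with all libraries. The whiskers of all 10 genes shorten without FT_1, from 1.03 to 0.19 for MYH11 and from 1.17 to 0.57 for DES.

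The order of the levels in FPKM, which takes gene length into account, changed between the groups. In WT cells it ran from ACTA2 and TAGLN, whose ranges overlapped, through TPM1, TPM2, MYL9, CNN1, LMOD1 and ACTG2 to MYH11 and DES. In FT cells ACTA2 stood alone at the top, followed by TAGLN, TPM1, MYL9, TPM2, ACTG2, CNN1, LMOD1, DES and MYH11, and only the ranges of ACTG2 and CNN1 overlapped. ACTG2 thus went from below LMOD1 in WT cells to about 5 times its level in FT cells, and MYL9 passed TPM2. The summed FPKM of the 10 genes was 4009.2, 5340.9 and 5140.6 in FT_1, FT_2 and FT_3, and 1901.1 to 2094.0 in WT cells. Of that sum, ACTA2 made up 34.2%, 45.3% and 46.3% in the FT libraries and 26.1% to 30.0% in the WT libraries, so FT_1 was nearer to WT cells in this share.

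Set against their own families, the smooth muscle forms made up a larger share in FT cells. ACTB and ACTG1, the cytoplasmic actins of all cells, were at an FPKM of 1893.31 to 2960.84 in every library. ACTA2 and ACTG2 together held 27.2%, 37.2% and 36.5% of the FPKM of the 6 actin genes in FT_1, FT_2 and FT_3, and 8.95% to 12.1% in WT cells. Neither cytoplasmic actin gene passed edgeR's quasi-likelihood test with Benjamini-Hochberg adjustment over all genes, where ACTB was at 0.13 in log2 (standard error 0.13, adjusted p = 0.453) and ACTG1 at -0.08 (standard error 0.12, adjusted p = 0.635). In FPKM, which was not rescaled between libraries, all FT values of ACTG1 were nonetheless below all its WT values. The sign of the small value for ACTB changed with the scaling, to -0.02 with library totals and -0.03 in limma on FPKM. The skeletal and cardiac actin genes ACTA1 and ACTC1 were at an FPKM of at most 0.04.

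The same held for calponins and regulatory light chains. CNN1 made up 30.6%, 36.3% and 36.8% of the calponin FPKM in FT_1, FT_2 and FT_3, and 7.07% to 8.78% in WT cells. MYL9 made up 39.2% to 45.0% of the FPKM of MYL9, MYL12A and MYL12B in FT cells and 17.5% to 19.8% in WT cells. The share of TPM1 and TPM2 among the 4 tropomyosins moved little, from 34.3% to 37.6% in WT cells to 39.6% to 40.4% in FT cells, as TPM4 was also higher in FT cells.

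**Figure D3:**
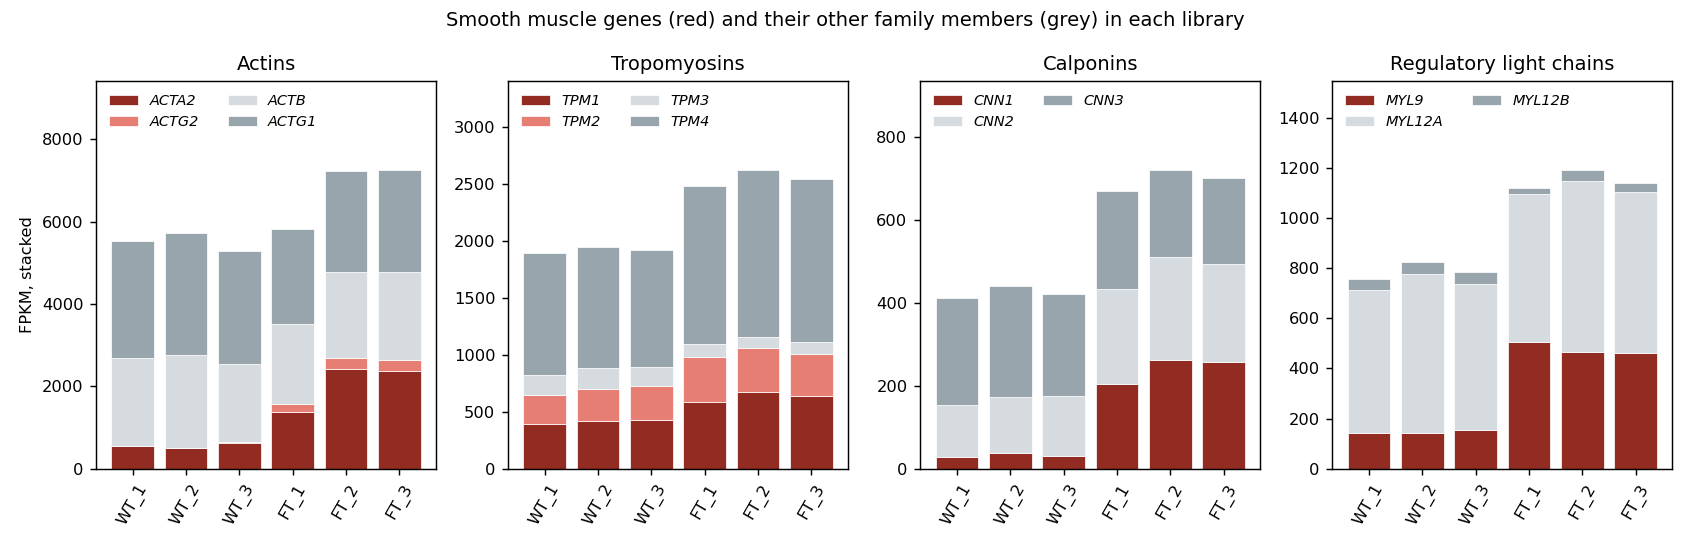
Stacked FPKM of actins, tropomyosins, calponins and regulatory light chains in each library, with the smooth muscle genes in red shades and the other family members in grey shades. The red share is larger in each FT library than in each WT library in all 4 panels, from 27.2% to 37.2% against 8.95% to 12.1% for the actins, and moves least in the tropomyosins.

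Of 15 tested close paralogues of these genes, 4 rose and 3 fell in edgeR's quasi-likelihood test, or 26.7% and 20.0%, near the 20.1% and 18.9% of all genes. Their median was -0.08. MYH10, the heavy chain of nonmuscle myosin IIB, rose most, from an FPKM of 82.8 ± 8.38 (SD, n = 3) in WT cells to 272.0 ± 15.2 in FT cells, or by a log2 value of 1.88 (standard error 0.12, edgeR's quasi-likelihood test, adjusted p = 0.000583). CNN2, a calponin of many nonmuscle cells, rose by 0.98 (standard error 0.1, adjusted p = 0.00136 in the same edgeR quasi-likelihood test), and every FT library lay above every WT library for both genes. TPM4 (0.60) and MYH9 (0.70) rose as well, while TPM3 (-0.63), the tropomodulin gene TMOD3 (-0.91), whose protein caps actin filaments, and the essential light chain gene MYL6 (-0.40) fell. MYH9 lost its call without FT_3 or any WT library, with library totals, with the replicate number as a block and in the 3 limma fits on FPKM. Its adjusted p ranged from 0.00099 to 0.135 over the alternatives. MYL6 lost its call without any library other than FT_1, and with FPKM rescaled to equal sums. TPM4 lost its call without WT_1. Both calls were also lost with the replicate number as a block and in limma on log2(FPKM + 1) with no filter. Over the alternatives the adjusted p ranged from 8.6e-05 to 0.126 for MYL6 and from 1.25e-13 to 0.105 for TPM4. Without FT_1, 5 of the paralogues rose and 7 fell, beside 30.6% and 31.5% of all genes.

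VIM, the intermediate filament gene of fibroblasts, went the other way from DES in its level, with an FPKM of 1243.94, 3850.19 and 4170.95 in FT_1, FT_2 and FT_3 and of 7890.61, 8177.52 and 7311.82 in WT_1, WT_2 and WT_3. FT_1 was lowest by far, and no FT library reached a WT library. Its log2 fold change of -1.17 (standard error 0.46) missed the threshold in edgeR's quasi-likelihood test (adjusted p = 0.0902) and passed it without FT_1 at -0.79, where the adjusted p was 1.06e-05. Over all alternatives the adjusted p of VIM lay between 1.06e-05 and 0.204.

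Reads of near-identical genes and of overlapping genes may have been assigned to either gene, since the counting rule and the use of strand were not given in the sources used here. The smooth muscle and cytoplasmic actins, the tropomyosins and the light chains are such close copies, so their levels carry that uncertainty. ACTA2 overlaps the receptor gene FAS by 851 bases on the opposite strand, MYH11 overlaps NDE1 by 19248 bases on the opposite strand, and TPM1 shares 1953 bases with ENSBTAG00000040590 on its own strand. None of these neighbours passed edgeR's quasi-likelihood test, with log2 fold changes of 0.20, -0.44 and 0.81 (adjusted p = 0.673, 0.111 and 0.104). Positions are those of the authors' table, whose genome build was not given in the sources used here beyond the name of a mouse build, mm8, in the processing notes.

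Across all genes, 2714 rose and 2547 fell of 13482 tested, so 51.6% of the called genes rose. This split depended on the scaling. It was 37.6% with library totals alone, and 34.0%, 34.8% and 32.5% in limma on FPKM without rescaling, where the summed FPKM was 390892 to 407533 in FT cells and 453721 to 467653 in WT cells. With FPKM rescaled to equal sums, a variant chosen after the data were seen, it was 53.4%. Fold changes on those scales sat lower as a whole, with a median of -0.12 over all genes with library totals against 0.03 in the fit used here. The counts of calls also depended on single libraries, with 4215 up and 4337 down without FT_1, 1516 and 1531 without WT_1, 1613 and 1570 without WT_2, and 1796 and 1741 without WT_3.

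The proteins that link the contractile filaments to each other and to focal adhesions were examined through a list of 46 genes. Of these, 42 were in the table and 40 were tested. All gene lists, this one among them, were chosen with earlier results of these data known. The shares given for the partners and for the other lists are thus a description, not independent support. Of these partners, 24 rose and 2 fell in edgeR's quasi-likelihood test, or 60.0% and 5.0%, beside 20.1% and 18.9% of all genes, and their median was 0.96, that of all genes 0.03. MYLK, the gene of myosin light chain kinase, rose from an FPKM of 8.03, 7.71 and 9.88 in WT_1, WT_2 and WT_3 to 37.8, 48.31 and 51.91 in FT_1, FT_2 and FT_3. All FT libraries lay above all WT libraries, at a difference of 2.59 in log2 (standard error 0.18, edgeR's quasi-likelihood test, adjusted p = 0.000668). CALD1, the gene of caldesmon, which holds myosin off the filament, rose from an FPKM of 416.0 ± 41.1 to 1399.0 ± 254.0 (SD, n = 3), by 1.91 in log2 (standard error 0.18, edgeR's quasi-likelihood test, adjusted p = 0.0013), again in all FT libraries. PDLIM5, a PDZ and LIM domain protein of actin bundles, rose by 1.42 (standard error 0.11, adjusted p = 0.000815 in edgeR's quasi-likelihood test), in all FT libraries.

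The 2 partners that fell were CAV1 and SVIL. CAV1, the gene of caveolin 1, which shapes the caveolae that are dense on smooth muscle membranes, held 188.16, 253.86 and 267.42 FPKM in FT_1, FT_2 and FT_3 against 1003.98, 1041.97 and 988.28 in WT cells. All FT libraries were far below all WT libraries, by -1.93 in log2 (standard error 0.17, edgeR's quasi-likelihood test, adjusted p = 0.00105). SVIL, the gene of the actin-binding protein supervillin, named after its values were seen, fell by 1.51 (standard error 0.16, adjusted p = 0.00162 in edgeR's quasi-likelihood test), with every FT library below every WT library.

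The number of partners that rose depended on single WT libraries and on FT_1. It was 30 without FT_1, where 6 fell, beside 30.6% and 31.5% of all genes, but 12 without WT_1, 14 without WT_2 and 16 without WT_3, where the genes called up in all numbered 1516, 1613 and 1796 in place of 2714. Of the 24 that rose, FT_1 was within 1.5-fold of the mean of FT_2 and FT_3 in 10, higher in 10 and lower in 4. The 4 lower ones, named after their values were seen, were CSRP1, NEXN, ITGA8 and DMPK, and ITGA8, the integrin alpha 8 gene, had 24.81 in FT_1 against 113.33 and 113.76 in FT_2 and FT_3 and 6.0 to 8.63 in WT cells. DMPK lost its call without WT_1 or WT_2, with an adjusted p from 8.35e-08 to 0.0516 over the alternatives. The partners thus did not move with FT_1 as a block.

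**Figure D4:**
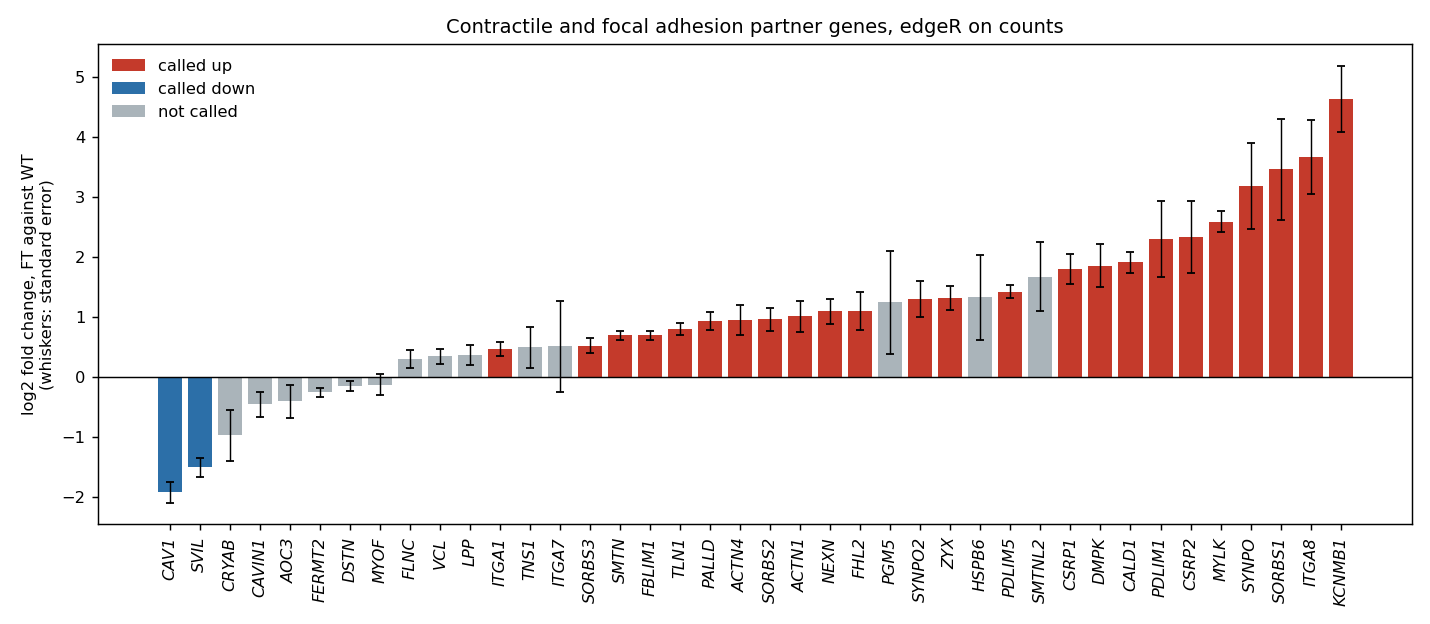
Log2 fold change of the 40 tested partner genes in FT cells against WT cells (bars; whiskers, standard error), ordered by value, with genes that rose in red, genes that fell in blue and genes that did not pass the test in grey. The 24 red bars include MYLK at 2.59 and CALD1 at 1.91, and the 2 blue bars are CAV1 at -1.93 and SVIL at -1.51.

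The signalling that starts and ends contraction was examined through 33 tested genes. Of these genes for calcium entry, RhoA signalling, myosin phosphatase and contractile receptors, 8 rose and 3 fell, shares of 24.2% and 9.09% beside 20.1% and 18.9% of all genes, at a median of 0.36. PPP1R12C, a targeting subunit of myosin phosphatase, rose by 1.41 (standard error 0.13, adjusted p = 0.0011 in edgeR's quasi-likelihood test). The calcium channel subunit gene CACNB3 rose by 1.05 (standard error 0.09, adjusted p = 0.00114 in edgeR's quasi-likelihood test), and the endothelin receptor gene EDNRA (0.82) and the RhoA activator gene ARHGEF1 (0.50) rose too, and in these 4 genes no FT library overlapped a WT library. RHOA and the cofilin gene CFL1, the most abundant of the list, had log2 fold changes of -0.27 and 0.16 and did not pass. Without FT_1, CFL1 passed edgeR's quasi-likelihood test at 0.24 (adjusted p = 0.0105), and RHOA was at -0.12 and did not pass. The 3 that fell were PPP1R14B, CALM3 and, at most at 0.27 FPKM in any library, GUCY1A1, all named after their values were seen. Each lost its call without any of the WT libraries, and PPP1R14B and GUCY1A1 also without FT_2 or FT_3, at an adjusted p from 0.000183 to 0.13 for PPP1R14B, 0.000933 to 0.0908 for CALM3 and 0.00179 to 0.132 for GUCY1A1 over the alternatives. Without FT_1, 17 of the list rose and 6 fell, beside 30.6% and 31.5% of all genes, and without FT_2 or FT_3 1 fell.

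Among 26 tested regulators of smooth muscle genes, 12 rose and 2 fell, or 46.2% and 7.69%, beside 20.1% and 18.9% of all genes. Their median was 0.64. The 12 include MYOCD and HEYL, both past the filter through the FT libraries alone, so 46.2% counts genes that had to differ. Regulators that rose numbered 6 without WT_1, 7 without WT_2 and 8 without WT_3, while calls over all genes also became fewer. Without FT_1, 17 rose and 3 fell, beside 30.6% and 31.5% of all genes. MYOCD, the gene of myocardin, the cofactor most specific to smooth and cardiac muscle, was at 0.64, 0.6 and 0.52 FPKM in FT_1, FT_2 and FT_3, at 0.02 in WT_1 and at 0 in WT_2 and WT_3. The level was low in all FT libraries and next to nothing in WT cells, with counts of 142, 100 and 98 against 4, 0 and 0. Like DES, the gene passed the filter through the FT libraries alone, so it had to differ, no p is given for it, and its place among the 12 supports nothing. The fitted value of 6.57 rests on the 4 reads of WT_1, as does the standard error of 1.0 derived from it. In limma on log2(FPKM + 1) with no filter the value was 0.66. No fold change of MYOCD is given without WT_1, since WT_2 and WT_3 were at 0. FT_1 did not stand apart in MYOCD.

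The MRTF cofactors are more widely expressed. MRTFA had an FPKM of 19.14, 17.12 and 16.34 in FT_1, FT_2 and FT_3 and of 9.28, 8.99 and 8.3 in WT_1, WT_2 and WT_3. The groups were well separated, by 1.14 in log2 (standard error 0.09, edgeR's quasi-likelihood test, adjusted p = 0.000808). MRTFB rose by 0.74 (standard error 0.17, adjusted p = 0.0191 in edgeR's quasi-likelihood test), in every FT library, but the call was lost without FT_2, FT_3 or WT_1, and its adjusted p lay between 0.0016 and 0.0742 over the alternatives. SRF itself, the DNA-binding partner, had an FPKM of 18.04, 22.43 and 23.93 in FT cells and of 21.52, 23.37 and 20.12 in WT cells, with overlapping groups. Its log2 fold change of 0.15 (standard error 0.14) did not pass edgeR's quasi-likelihood test (adjusted p = 0.424), passed it without FT_1 (0.27, adjusted p = 0.0135), and turned to -0.01 with library totals, with an adjusted p from 0.0135 to 0.973 over all alternatives.

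Both regulators that fell are known from smooth muscle. KLF4, a factor that represses contractile genes in smooth muscle cells that lose their phenotype, was at 16.95, 19.47 and 22.62 FPKM in FT_1, FT_2 and FT_3 against 64.22, 65.57 and 63.08 in WT cells. All FT libraries were lower, by -1.55 in log2 (standard error 0.13, edgeR's quasi-likelihood test, adjusted p = 0.000952). MEF2A, a muscle transcription factor, fell by 0.92 (standard error 0.11, adjusted p = 0.00234 in edgeR's quasi-likelihood test). Among those that rose, TEAD3, which binds DNA for YAP, rose by 1.44 (standard error 0.1, adjusted p = 0.000688 in edgeR's quasi-likelihood test), in all FT libraries. FOXF1, a factor of visceral mesenchyme and gut smooth muscle, rose from an FPKM of 1.24 ± 0.535 to 7.11 ± 0.487 (SD, n = 3), and TBX18, a factor of mural and ureteral mesenchyme, from 10.6 ± 0.72 to 23.1 ± 2.29. Their log2 fold changes were 2.68 and 1.29, with an adjusted p of 0.00264 and 0.000848 in edgeR's quasi-likelihood test and no overlap between groups.

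TEAD2 rose by 0.98, and KLF5, YAP1, MEF2D and SMAD4 rose by 1.13, 0.73, 0.68 and 0.31, but these 4 lost their calls without WT_1 or WT_2, at an adjusted p of up to 0.0712, 0.116, 0.0566 and 0.23 over the alternatives. KLF5, YAP1 and SMAD4 also lost it without WT_3, and SMAD4 without FT_2 or FT_3. The calls of YAP1 and SMAD4 depended on the scaling too, and were lost with library totals and in the 3 limma fits on FPKM. HEYL, the last of the 12, was at most at 0.11 FPKM in FT cells and 0.03 in WT cells. Like MYOCD, it passed the filter through the FT libraries alone and supports nothing, and its call was lost without any library other than FT_1. PRRX1 and WWTR1 were the most abundant regulators. GATA4 and GATA6, factors of visceral and vascular muscle, stayed under an FPKM of 1 in all libraries. GATA6 was at 0.96 in FT_1 and at most at 0.09 elsewhere, and GATA4 was at most at 0.02.

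**Figure D5:**
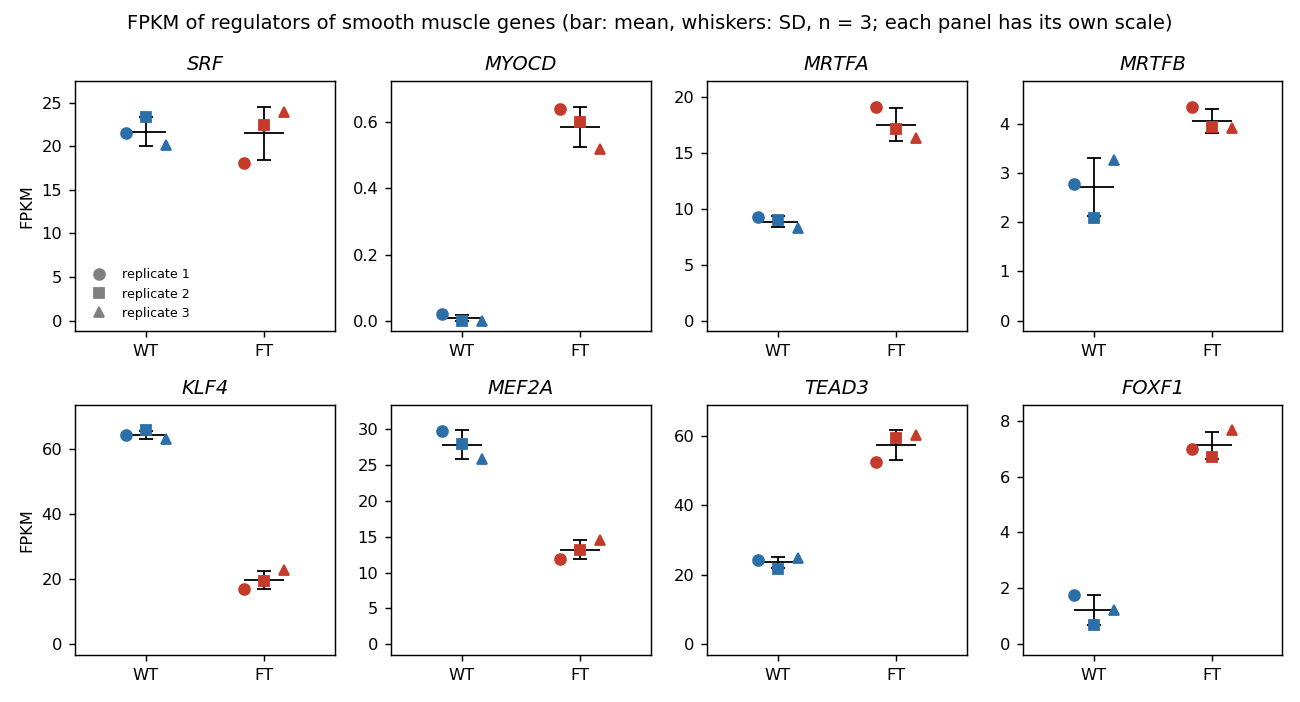
FPKM of 8 regulators of smooth muscle genes in each library (red, FT cells; blue, WT cells; circle, square and triangle, replicates 1, 2 and 3), with the mean (bar) and SD (whiskers, n = 3), each panel on its own scale. SRF overlaps between the groups, MYOCD, MRTFA, MRTFB, TEAD3 and FOXF1 are higher in all FT libraries, and KLF4 and MEF2A are lower in all FT libraries.

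Of 16 tested genes of a list of SRF and YAP targets, which holds SRF itself and the light chain gene MYL12A, 7 rose and none fell, where 20.1% of all genes rose and 18.9% fell. Their median was 0.69. JUNB, a transcription factor of the AP-1 family, rose by 1.52, the thrombospondin gene THBS1 by 1.97, the kinase gene LATS2 by 0.91 and AMOTL2, whose protein binds YAP, by 0.89. The standard errors were 0.11, 0.19, 0.08 and 0.13, with an adjusted p of 0.000688, 0.00133, 0.00119 and 0.00358 in edgeR's quasi-likelihood test. For all 4 every FT library lay above every WT library. Without FT_1, 11 rose and 4 fell, beside 30.6% and 31.5% of all genes, and DESeq2 and limma on FPKM called 1 and 2 down with all libraries. At an FPKM of 2029.52, CCN2, the gene of connective tissue growth factor, was abundant in FT_1, and it overlapped between the groups. It was at 544.61 and 528.84 in FT_2 and FT_3, below the 702.89 to 747.59 of WT cells. Its log2 fold change of 0.67 did not pass edgeR's quasi-likelihood test (adjusted p = 0.364). Without FT_1 its direction turned, and it fell at -0.25 (adjusted p = 0.00493 in the same test).

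Markers of activated myofibroblasts other than ACTA2 rose in part. Of 22 tested, 8 rose and 1 fell, or 36.4% and 4.55%, beside 20.1% and 18.9% of all genes, and the median was 0.83. INHBA, the gene of the activin A subunit, rose from an FPKM of 7.32, 7.08 and 7.34 in WT_1, WT_2 and WT_3 to 55.55, 60.8 and 61.92 in FT_1, FT_2 and FT_3. The libraries of each group were tightly grouped, FT_1 included, at a distance of 3.2 in log2 (standard error 0.09, edgeR's quasi-likelihood test, adjusted p = 0.000171). The fibrillar collagen gene COL11A1 rose by 2.42 (standard error 0.12, adjusted p = 0.000523 in edgeR's quasi-likelihood test). CTHRC1, a secreted marker of matrix-producing fibroblasts, rose by 2.10 (standard error 0.23, adjusted p = 0.00173 in edgeR's quasi-likelihood test), with 42.61 in FT_1 against 71.2 and 71.32 in FT_2 and FT_3.

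Other markers of the same list depended on FT_1. COL1A1 had an FPKM of 914.12, 2610.75 and 2688.78 in FT_1, FT_2 and FT_3 and of 2211.63 to 2330.78 in WT cells, and its fitted difference was 0.03 (standard error 0.42), while without FT_1 it passed the test at 0.39. TNC, the gene of tenascin C, had 1184.81 in FT_1, below all WT libraries, and 3927.14 and 4115.16 in FT_2 and FT_3, above all of them. Its log2 fold change of 1.04 (standard error 0.48) did not pass edgeR's quasi-likelihood test (adjusted p = 0.135, from 1.87e-07 to 0.43 over the alternatives), but it passed without FT_1, at 1.43. IGFBP7 passed, but its level in FT_1 was 5.32 times the mean of FT_2 and FT_3, and its log2 fold change went from 4.78 to 3.52 without that library. CDH2, the marker that fell, was named after its values were seen and lost its call without FT_2, WT_1 or WT_2, with an adjusted p from 0.00156 to 0.0773 over the alternatives. The count that rose was 13 without FT_1, where 4 fell, beside 30.6% and 31.5% of all genes, and 6 to 8 without any other single library.

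Muscle of other kinds was hardly represented. Of 15 skeletal muscle markers in the table, 13 were under an FPKM of 1 in all 6 libraries, among them MYMK, CKM, TNNT3, NEB and ACTA1. The summed FPKM of the list was 0.54, 6.39 and 7.11 in FT_1, FT_2 and FT_3 and 6.87 to 8.27 in WT cells, with PAX3 the most abundant gene, and MYH3, at most at 0.12, was the single gene called of 5 tested. Of 7 cardiac markers in the table, 6 were under 1 in all libraries, NPPB reached 2.76 in FT_1, and TNNT2, at most at 0.33 in WT cells and at 0 in FT cells, was the single gene called of 3 tested. MYH3 and TNNT2 passed the filter through the WT libraries alone, so they had to differ, and nothing is read from their calls, which were lost without WT_1 or WT_2. Without FT_1, 1 skeletal gene rose and 2 fell, and 2 cardiac genes fell, beside 30.6% and 31.5% of all genes. These levels were far below those of ACTA2, TAGLN or CNN1 in the same libraries.

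Pericytes, the contractile cells of small vessels, share ACTA2 and other contractile genes with smooth muscle. Of 11 pericyte markers in the table, 5 were under an FPKM of 1 in all libraries, and the defining COX4I2 and HIGD1B were at most at 0.04 and 0.08. The summed FPKM was 46.9 in FT_1, 115.0 and 124.0 in FT_2 and FT_3 and 77.5 to 87.3 in WT cells, with PDGFRB, which fibroblasts also express, the most abundant. Of 9 tested, ANGPT1 and MCAM were called up and CSPG4 fell, or 22.2% and 11.1% beside 20.1% and 18.9% of all genes, around a median of 0.03. MCAM, at most at 0.06 FPKM in WT cells, passed the filter through the FT libraries alone, and nothing is read from its call. Without FT_1 4 pericyte markers rose and 4 fell, beside 30.6% and 31.5% of all genes. Of 9 endothelial markers in the table, 8 were under 1 in all libraries, with CDH5 at most at 0.1 and KDR at most at 0.03, and of 4 tested none rose or fell, while without FT_1 2 of 5 fell. Their sum was 7.13 in FT_1 and 0.86 to 2.97 elsewhere. The highest was ERG, at 6.03 in FT_1. The part of such cells in the contractile genes was not tested.

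Summed over each list, mesothelial and epithelial markers were highest in FT_1, but some members, such as CLDN4 and WT1, were not. The 9 mesothelial markers in the table summed to an FPKM of 303.0 in FT_1, 46.5 and 47.1 in FT_2 and FT_3 and 2.38 to 3.58 in WT cells. MSLN, the most abundant, was the gene that rose of 4 tested, with 198.65, 44.93 and 46.18 in FT cells against 2.08 to 3.18 in WT cells, while WT1 was at most at 0.05 and not above 0 in FT cells. The 10 epithelial markers summed to 398.0 in FT_1, 15.4 and 15.2 in FT_2 and FT_3 and 8.11 to 14.3 in WT cells. CLDN4, which passed the filter with 3 FT and 2 WT libraries, rose. KRT15 was also called up of the 6 tested, but it passed through the FT libraries alone, so nothing is read from its call, which was lost without any of the WT libraries. EPCAM was at 0.57 in FT_1 and at 0 in all other libraries and GRHL2 was at most at 0.03. Without FT_1, 3 mesothelial and 4 epithelial markers were called up, of which KRT8, KRT18, KRT5, KRT14 and KRT15 had passed the filter through the FT libraries alone, so nothing is read from these counts. Their part in the contractile genes was not tested.

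The remaining lists were small. Of 17 tested fibroblast markers, PDGFRA and FBLN1 rose and CD34 fell, or 11.8% and 5.88% beside 20.1% and 18.9% of all genes, around a median of 0.22. Without FT_1 9 rose and 5 fell, beside 30.6% and 31.5% of all genes. FBLN1 was at 1580.8 and 1565.18 FPKM in FT_2 and FT_3, but at 163.01 in FT_1, within the 160.27 to 195.99 of WT cells. Of 5 leukocyte markers tested, FCER1G rose and CD163 and CD68 fell. TUBB3 fell among 3 neural markers, RUNX2 rose and ACAN fell among 4 cartilage and bone markers, and LEP rose and FABP4 fell among 6 adipocyte markers. CIDEC, at 2.27 to 3.2 FPKM in WT cells and at most at 0.08 in FT cells, was also called down, but it passed the filter through the WT libraries alone. The lists of 3 to 6 tested genes are too short to set their counts against the shares of all genes. LEP was at 0.03 FPKM in FT_1, within the 0.02 to 0.09 of WT cells, and at 4.91 and 4.45 in FT_2 and FT_3. Of the calls in these and the preceding lists of cell types, those of FBLN1, FCER1G, CD163, CD68, TUBB3, ACAN, LEP and FABP4 were lost without WT_1 or WT_2, and some of them without other libraries, where the highest adjusted p lay between 0.0594 for FABP4 and 0.143 for FCER1G. Without FT_1, 3 leukocyte, 2 neural and 3 adipocyte markers and 1 marker of cartilage and bone fell. In the same fit 1 leukocyte marker, 1 adipocyte marker and 2 markers of cartilage and bone rose. The adipocyte markers summed to an FPKM of 140.0 to 156.0 in WT cells and 5.01, 19.2 and 20.1 in FT_1, FT_2 and FT_3, in WT cells mostly FABP4, and the leukocyte, neural, and cartilage and bone lists summed to at most 17.7 in any library.

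The genes whose log2(FPKM + 1) values over the 6 libraries, centred on their mean, came closest to that of ACTA2, of 12237 compared, were LBH, CTHRC1 and DACT1, with a root mean square log2 difference of 0.04, 0.06 and 0.09. LBH, a transcription cofactor of limb and heart development, had an FPKM of 31.9, 58.01 and 55.57 in FT_1, FT_2 and FT_3 and of 12.68, 10.88 and 15.23 in WT_1, WT_2 and WT_3. Since LBH was picked for its closeness to ACTA2 over these libraries, its intermediate level in FT_1 follows from that choice. The contractile genes themselves were left out of the comparison. Closest to ACTG2 were MIR22, JSP and IGFBP2, at 0.3, 0.34 and 0.52. MIR22 was at 0.1 to 0.16 FPKM in WT cells, where the added 1 sets the value, and its fitted log2 fold change was 6.58 against 4.69 for ACTG2. IGFBP2, an insulin-like growth factor binding protein gene, had 1051.53, 1309.5 and 1166.58 in FT cells against 24.48 to 29.42 in WT cells. The nearest neighbours of ACTG2 were thus farther from it than those of ACTA2 from ACTA2.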

How the data were processed

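The authors mapped paired-end poly(A) reads with HISAT to a UCSC genome, joined the transcripts of all samples and derived levels from them with StringTie and edgeR. Their processing notes list HISAT2 2.0, StringTie 1.3.0 and Bowtie 0.12.2. The deposited table gave raw counts per gene and, per the file headers, FPKM values that the authors scaled by gene length and library total. From the counts, edgeR 4.0.16 (R 4.3.3) fitted FT against WT cells with TMM factors, filterByExpr and a quasi-likelihood test. Genes were called at a Benjamini-Hochberg adjusted p under 0.05 over 13482 genes. Alternatives used other scalings and filters, DESeq2 1.42.0, limma 3.58.1 on log2(FPKM + 1), a replicate block and leaving out each library. The 19 gene lists, of which the contractile genes are 1, were chosen with earlier results of these data known. Of 307 listed symbols, 268 were found, 1 of them by an older symbol. Named genes were the contractile genes, their paralogues and regulators, and from each other list the 4 called genes with the smallest p and the 2 most abundant. Libraries of a group differed by a mean chi-square per gene of 11.3 or more, beyond counting error, so none was merged with another. This cannot tell separate fetuses from cultures of 1 fetus. That each library is a fetus rests on the names the paper gives the fetuses.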

Additional observations from a re-analysis of the deposited data

How the results depend on the processing

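All 10 contractile genes were higher in FT cells under each of the 16 alternatives, though no fold change of DES is given without WT_1, where both remaining WT libraries were at 0. Their median log2 fold change of 2.03 was 1.88 with library totals, 1.72 in limma on log2(FPKM + 1), with or without the filter, and 1.75 with a pseudocount of 0.1, and it lay between 1.88 and 2.26 with single libraries left out. limma without a filter called 1744 genes up, against 2714. At the threshold of the study's methods 1378 genes rose and 1208 fell. With single libraries left out, 1516 to 4215 genes rose and 1531 to 4337 fell. The partners that rose numbered 12 to 30 and those that fell 2 to 6. The partners that fell, 2 in the fit used here, were 4 with library totals, 4 in DESeq2 and 5 in filtered limma on FPKM with either pseudocount. They were 3 in limma on log2(FPKM + 1) with no filter and 2 with FPKM rescaled to equal sums. The small log2 fold change of ACTB turned to -0.02 with library totals and -0.03 in the 3 limma fits on FPKM. That of SRF turned to -0.01 and -0.02. The median of all genes was -0.12 with library totals, against 0.03 in the fit used here. In limma on FPKM it was -0.12 and -0.15 with 1 and 0.1 added, and -0.03 with 1 added and no filter. Of 71 named genes that passed, the contractile genes not counted, 25 lost the call in at least 1 alternative. The cause of these changes was not tested.

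The replicate numbers did not pair the samples, which came from different fetuses, with correlations of -0.001, -0.02 and 0.018 between same-numbered libraries. With the replicate number as a block, 1838 genes rose and 1741 fell, 17 partners rose and 2 fell, and the median of the contractile genes was 1.99. The block ended the calls of MYH9, MYL6, TPM4, CALM3, GUCY1A1, YAP1, SMAD4, HEYL and CDH2. Among the markers of cell types it ended those of FBLN1, MYH3, TNNT2, KRT15, CD68, FCER1G, TUBB3, ACAN and LEP.

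With 3 libraries per group, DES and MYOCD, at few or no reads in WT cells, have wide errors that rest on those reads. MYH11 has an error of 1.03 that was 0.19 without FT_1.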
